A study of Mus musculus with 4 samples.

Results

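The peaks described here were sites of Deaf1 chromatin immunoprecipitation (ChIP) signal at the ends of protein-coding genes that were called in replicate 2 of the study and not in replicate 1. A peak was counted when it lay on chromosomes 1 to 19 or X, overlapped no replicate 1 peak, lay more than 10 kb from every region of the combined list of both replicates, and had its summit within 1 kb of a start or end of a protein-coding gene. Of the 3126 peaks of replicate 2, 742 (23.7%) met this rule. They were chosen by the peak calls of both libraries, so their absence from replicate 1 is the definition and not a result, and their strength in replicate 2 is given as a description without a test. They lay at 888 of 21887 protein-coding genes (4.06%), among them genes for the ribosome, the proteasome, protein import into mitochondria, transcription and vesicle traffic.

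The study mapped Deaf1 by ChIP-seq in the established mouse line C2C12, whose cells are myoblasts, the precursors of muscle fibres. It comprised 4 libraries from cells of that line: 2 made with an antibody against Deaf1 and 2 inputs made without antibody, numbered as replicates 1 and 2. No other condition, genotype or treatment is named, the labels do not say whether the replicates came from separate cultures, and all 4 libraries come from 1 cell line. The series title places Deaf1 in muscle regeneration, FOXO control and autophagy. The inputs are seen only in the background values of the peaks, and peak lists of a DNA-binding factor do not allow the labelled cell type to be checked against expressed markers. The labels describe fixation with formaldehyde and also use the term native ChIP-seq, and the conflict was not settled.

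Deaf1 is a transcription factor whose SAND domain contacts DNA at TTCG half-sites, often near gene starts, where it can activate or repress transcription. Promoters of widely expressed housekeeping genes are rich in CpG and often carry sites for ETS factors, which recognise a GGAA core, and for CREB and ATF factors, which recognise the cAMP response element (CRE). Many such promoters serve a pair of genes that start back to back on opposite strands.

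The sequences at the summits are shown first. Promoter sequences came from RefSeq on GRCm38.p6, the assembly that mm10 names, and 746 of the 888 genes had an entry. Below are stretches of up to 60 bases on each side of the summit, kept upstream of the gene start, outside protein-coding gene spans and at least 30 bases long, for the 8 peaks of highest fold enrichment whose stretch held the summit. They are written 5′ to 3′ on the gene's strand. Capitals mark the ETS word CCGGAAG or its reverse complement CTTCCGG, and the short CRE word TGACG or its reverse complement CGTCA.
Ubxn1 (chr19:8871441-8871547, plus strand): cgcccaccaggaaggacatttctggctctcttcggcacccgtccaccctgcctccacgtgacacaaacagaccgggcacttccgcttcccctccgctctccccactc
Zfp420 (chr7:29859899-29859966, plus strand): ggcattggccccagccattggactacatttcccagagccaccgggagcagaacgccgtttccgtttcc
Cnot11 (chr1:39535576-39535696, plus strand): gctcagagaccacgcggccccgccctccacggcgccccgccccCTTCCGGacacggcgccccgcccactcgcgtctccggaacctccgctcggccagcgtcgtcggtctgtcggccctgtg
Bloc1s4 (chr5:36748680-36748755, minus strand): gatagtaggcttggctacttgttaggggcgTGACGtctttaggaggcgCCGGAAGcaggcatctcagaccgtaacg
Ddx21 (chr10:62602299-62602389, minus strand): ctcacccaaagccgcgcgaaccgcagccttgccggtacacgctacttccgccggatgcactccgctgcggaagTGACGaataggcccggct
Tor1a (chr2:30967919-30968002, minus strand): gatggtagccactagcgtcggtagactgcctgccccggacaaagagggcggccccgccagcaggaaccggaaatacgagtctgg
Nop58 (chr1:59684834-59684954, plus strand): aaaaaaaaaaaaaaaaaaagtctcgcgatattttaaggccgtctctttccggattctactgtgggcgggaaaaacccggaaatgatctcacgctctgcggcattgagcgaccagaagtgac
Taf1c (chr8:119605207-119605325, minus strand): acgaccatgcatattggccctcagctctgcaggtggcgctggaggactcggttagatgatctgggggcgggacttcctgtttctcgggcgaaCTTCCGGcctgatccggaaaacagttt
In each of these lines the summit is base 61. The ETS word stood in 3 of the 8 stretches, at Cnot11, Bloc1s4 and Taf1c, with its centre 14, 9 and 35 bp from the summit. The short CRE word stood at Bloc1s4 and Ddx21, 28 and 15 bp from the summit. The stretches at Tor1a and Nop58 held the 6-base word CCGGAA once and 2 times, without the final base of the ETS word. Ubxn1 and Zfp420 held none of these words. The Deaf1 half-site TTCG occurred once at Ubxn1, once at Taf1c and 2 times at Ddx21.

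The next 6 stretches were chosen after their sequences were seen, to show both words near a summit.
Eif3g (chr9:20898591-20898709, minus strand): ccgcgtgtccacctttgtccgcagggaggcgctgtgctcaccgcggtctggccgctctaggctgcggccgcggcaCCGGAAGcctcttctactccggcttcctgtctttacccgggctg
Arl6ip4 (chr5:124116002-124116107, plus strand): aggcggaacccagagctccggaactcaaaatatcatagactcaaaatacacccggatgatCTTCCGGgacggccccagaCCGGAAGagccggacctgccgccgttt
Ap1ar (chr3:127837524-127837627, minus strand): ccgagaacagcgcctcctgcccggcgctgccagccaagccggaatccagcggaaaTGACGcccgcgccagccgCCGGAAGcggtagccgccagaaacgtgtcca
Psmd6 (chr14:14120946-14121058, minus strand): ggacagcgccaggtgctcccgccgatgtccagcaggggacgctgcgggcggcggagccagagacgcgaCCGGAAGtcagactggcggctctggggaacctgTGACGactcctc
Fbxw9 (chr8:85059987-85060107, plus strand): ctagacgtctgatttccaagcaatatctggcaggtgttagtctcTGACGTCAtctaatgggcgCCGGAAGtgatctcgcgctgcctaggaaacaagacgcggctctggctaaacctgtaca
Zfp426 (chr9:20492747-20492836, minus strand): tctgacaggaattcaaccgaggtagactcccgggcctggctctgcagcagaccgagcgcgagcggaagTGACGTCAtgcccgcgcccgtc
The summit is again base 61. Arl6ip4, a splicing-associated protein gene, held 2 ETS words, the nearer with its centre 3 bp from the summit. The ETS word lay 18 bp from the summit at Eif3g, a subunit of translation initiation factor 3, and 11 bp away at Psmd6, a regulatory subunit of the proteasome. At Ap1ar, which encodes a partner of the AP-1 adaptor, the short CRE word lay 3 bp and the ETS word 16 bp from the summit. Fbxw9 carried the palindromic full CRE TGACGTCA, with the nearer of its overlapping short words 11 bp from the summit, and the ETS word 6 bp from it. Zfp426 carried the palindrome, with a short word 10 bp away, and no ETS word.

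Depth set how well single peaks were known. The genome-wide background was 1.80 fragments in replicate 1 and 2.09 in replicate 2, a ratio of 1.16, as recovered from the fold enrichment and p of each peak. Replicate 1 had 1860 peaks, replicate 2 had 3126, and the combined list had 1550 regions. The lowest summit in either list held 10 fragments. The replicate 1 list gives no number where it has no peak, so each value below is from replicate 2 alone and has no replicate error. Intervals are 95% exact Poisson intervals on fragments or exact (Clopper-Pearson) intervals on shares and cover counting error only.

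Replicate 2 had 2129 gene-end peaks. Of these, 1241 (58.3%) overlapped a replicate 1 peak and are called shared peaks here, 742 (34.9%) were the peaks seen only in replicate 2, and 146 were unshared but lay within 10 kb of a combined region. The mirrored rule, replicate 1 gene-end peaks without replicate 2 overlap and away from the combined list, found 84 of 1373 (6.12%).

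The peaks seen only in replicate 2 were low and narrow. Their median fold enrichment over local background was 5.83 (interquartile range 4.86 to 6.95), with a lowest of 2.57 and a highest of 16.8, against a median of 8.42 (6.48 to 11.3) and a highest of 53.7 for shared peaks. A median of 20 fragments covered their summits (17 to 23, range 11 to 51), against 32 (25 to 41, range 13 to 165) at shared peaks. The distributions overlapped over most of the lower range, and only the upper part of the shared peaks lay beyond every replicate 2-only peak. Median width was 122 bp against 179 bp, and 9 peaks seen only in replicate 2 were at least 300 bp wide against 219 shared peaks. The background at their summits was the genome-wide minimum for 360 (48.5%) against 441 (35.5%) of shared peaks.

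The deposited q values placed nearly all of them within the caller's usual limit. The median −log10 q was 7.87, with 565 (76.1%) at 5 or more and 2 with q above 0.05. Among shared peaks the median was 18.3 and 96.5% reached 5. The 84 mirrored peaks of replicate 1 had a median fold enrichment of 6.07 and 17 fragments at the median summit (range 12 to 28), so they were as low as those of replicate 2 but far fewer.

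The share of replicate 2 gene-end peaks found in replicate 1 followed their height. At 10 to 14 fragments 6 of 134 peaks were shared (4.48%, interval 1.66 to 9.49%). At 15 to 19 fragments the share was 19.3% (15.6 to 23.4%, n = 425) and at 20 to 24 fragments 40% (35.4 to 44.8%, n = 435). Above that it was 69.0% (63.8 to 73.9%, n = 342) at 25 to 29 fragments, 89.8% (86.6 to 92.5%, n = 442) at 30 to 39, and 98.6% (96.7 to 99.5%, n = 351) at 40 and over. Of the 742 peaks seen only in replicate 2, 142 (19.1%) had 25 fragments or more, against 979 (78.9%) of the shared peaks. Where shared peaks had 17 to 23 fragments in replicate 2, as the middle of the replicate 2-only peaks did, the 204 of them had a median of 17 fragments in replicate 1 (range 12 to 76). Presence in replicate 1 is part of the rule, so these shares describe where in the range of heights the peaks lie. The 204 shared peaks were likewise taken for having a replicate 1 peak, so their replicate 1 heights are those of called peaks only. The part of the higher background of replicate 2, 1.16 times that of replicate 1, was not tested.

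**Figure D1:**
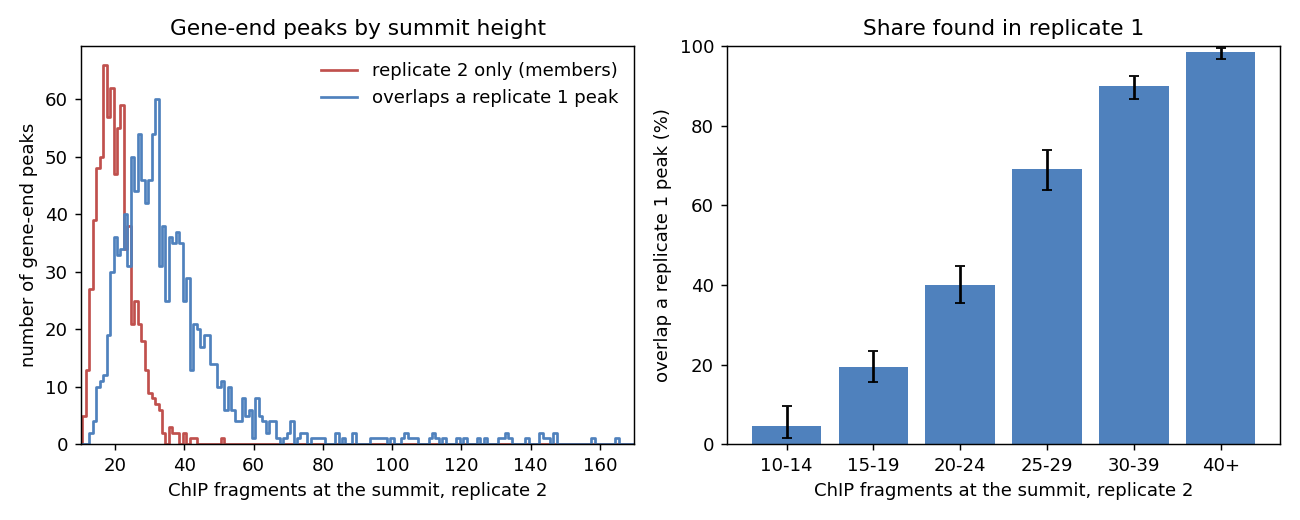
Left: number of replicate 2 gene-end peaks (vertical axis) by ChIP fragments at the summit (horizontal axis), for peaks seen only in replicate 2 (red) and shared peaks (blue). Right: percent of replicate 2 gene-end peaks that overlap a replicate 1 peak per class of height, with exact 95% intervals, climbing from 4.48% to 98.6%.

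The strongest of the 742 stood apart from the rest. It spanned 97137864 to 97138050 on chromosome 13. The summit lay 12 bp from the nearer of the starts of Gfm2, which encodes a mitochondrial elongation factor that acts in ribosome recycling, and Nsa2, a ribosome biogenesis gene. Its fold enrichment was 16.8, from 51 fragments (interval 38.0 to 67.1) over a background of 2.09. Replicate 1 had no peak within 1178934 bp. Among shared peaks with fragments in replicate 2 within 10% of 51, of which there were 117, the replicate 1 peaks held between 27 and 57 fragments, with a median of 37. These 117 were taken for having a replicate 1 peak, so their values are a description and cannot tell what replicate 1 held at Gfm2 and Nsa2.

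After Gfm2 and Nsa2 the values fell to 12.3 and below. Atp13a1, an ATPase of the endoplasmic reticulum that removes misplaced membrane segments, had a fold enrichment of 12.3 from 37 fragments (26.1 to 51.0) on chromosome 8 from 69791106 to 69791297. Ubxn1, a cofactor of the p97 segregase, and Zfp420, a zinc finger protein, each had 12 from 36 fragments (25.2 to 49.8). Haus1, a subunit of the spindle complex augmin, and Atp5a1, the alpha subunit of ATP synthase, had 1 peak between them, whose side was not known. It had 11.8 from 36 fragments. The 4 peaks from Atp13a1 to this one had counting intervals that overlapped one another almost entirely.

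Cnot11, a subunit of the CCR4-NOT deadenylase, had a fold enrichment of 11.8 from 37 fragments over a background of 2.23. Bloc1s4, a subunit of the BLOC-1 complex of endosomal traffic, and the zinc finger gene Zfp626 each had 11 from 33 fragments (22.7 to 46.3). Ddx21, a nucleolar RNA helicase, had 10.8, and Prim2, the large subunit of primase, had 10.7, both from 33 fragments. Nop58, a core protein of box C/D small nucleolar ribonucleoproteins, had more fragments (40, interval 28.6 to 54.5) but a lower fold enrichment of 10.5, since its background was 2.90.

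The other 9 of the 20 highest ranged from 10.7 down to 10.3. Tor1a, which encodes torsin A, Kxd1, a subunit of the lysosome-positioning complex BORC, and Mcmdc2, a meiotic relative of the MCM helicase, each had 10.7 from 32 fragments (21.9 to 45.2), as did the paired starts of Ubox5, a U-box ubiquitin ligase, and Fastkd5, which acts in mitochondrial RNA processing. The paired starts of Rars2, the mitochondrial arginyl-tRNA synthetase, and Orc3, a subunit of the origin recognition complex, had 10.4 from 31 fragments (21.1 to 44.0). Taf1c, a subunit of the RNA polymerase I factor SL1, 2700062C07Rik, and Phrf1 with Gm51460 had the same 10.4 from 31 fragments. Gpr108, a Golgi membrane protein, had 10.3 from 34 fragments, with its summit 726 bp from the start of its gene span. Such ties are exact because fragments are whole numbers over the same minimum background.

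Only 5 of the 742 reached 40 fragments, against 346 shared peaks. Besides Gfm2 with Nsa2 and Nop58 they were Mrpl28 with Pgap6 (43 fragments, fold enrichment 9.04), Fam120b (42, 7.37) and Pex16 (40, 8.42). Mrpl28 encodes a protein of the mitochondrial ribosome, and Pex16 acts in peroxisome formation. The last 3 sat over backgrounds of 3.87, 4.84 and 3.87 fragments, so their height did not give a correspondingly high fold enrichment.

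The 4 peaks named here, out of the 5 widest, had fold enrichments at or below the median of 5.83. Those at Ccnyl1 (403 bp), Ube2s (397 bp), Atp5h with Kctd2 (354 bp) and Otud4 with Gm51579 (338 bp) had fold enrichments of 4.11, 5.83, 4.97 and 5.13.

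The peaks nearest to the limits of the rule varied in strength. Just beyond 10 kb from a combined region lay Eif3g at 10262 bp (fold enrichment 9.39, 28 fragments) and Trim28 at 10284 bp (6.80, 20 fragments). Just short of it lay Dimt1 at 9990 bp (6.66, 25 fragments) and Srsf2 at 9453 bp (3.08, 14 fragments). At the 1 kb limit, the summits at Gramd4 (964 bp from the gene start, fold enrichment 3.61) and Mast3 (945 bp from the gene start, 4.86) were included. Those at Ercc1 (1023 bp from the nearest start or end, 5.83) and Zfp239 (1030 bp, 7.45) were not.

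Most of the peaks were far from any combined region, and a few were close to a replicate 1 peak that they did not touch. The median gap to the combined list was 293 kb, with 221 within 100 kb and 186 over 1 Mb away. A replicate 1 peak lay within 1 kb of 9 of them. These were at Zbtb5 (12 bp away), Pih1d2 with Nkapd1 (42 bp), Gmpr2 with Nedd8 (74 bp), Gtf3c2 (109 bp), Usf1 (118 bp), Tmem59 with Tceanc2 (144 bp), Csnk2a1 (159 bp), Phrf1 (180 bp) and Supt6 with Sdf2 (193 bp). At these genes both libraries had a peak near the same start without a shared base. The replicate 1 peak at Phrf1 had a fold enrichment of 7.85 from 21 fragments and itself met the mirrored rule.

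The summits gathered at gene starts. The strand of a gene was known for those with a promoter entry. Of the 742, 629 (84.8%) had a known start within 1 kb, against 1013 (81.6%) of the shared peaks. Of the 610 whose neighbouring gene ends were all identified, 99.3% were at a start, against 98.9% of the shared peaks treated alike. Only 4 were at the 3′ end of a gene alone. These were Eps8l2, Ticam1, Dpm3 and Ppm1h, with fold enrichments of 6.15, 5.75, 5.66 and 5.42. Another 22 lay near a start of one gene and an end of another, and for 107 no side could be given.

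Around the start, the position was close to that of shared peaks. With 623 peaks that had a start of the promoter table within 1 kb, the median summit lay at −28 bp (interquartile range −77.5 to 3, negative being upstream). The median for 992 shared peaks was −25 bp (−63 to 0). Summits lay upstream in 73.4% and 74.1%, and within 100 bp of the start in 70.5% and 77.7%. The summits of the peaks seen only in replicate 2 were thus a little more spread, although both groups peaked in the 25 bp before the start.

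**Figure D2:**
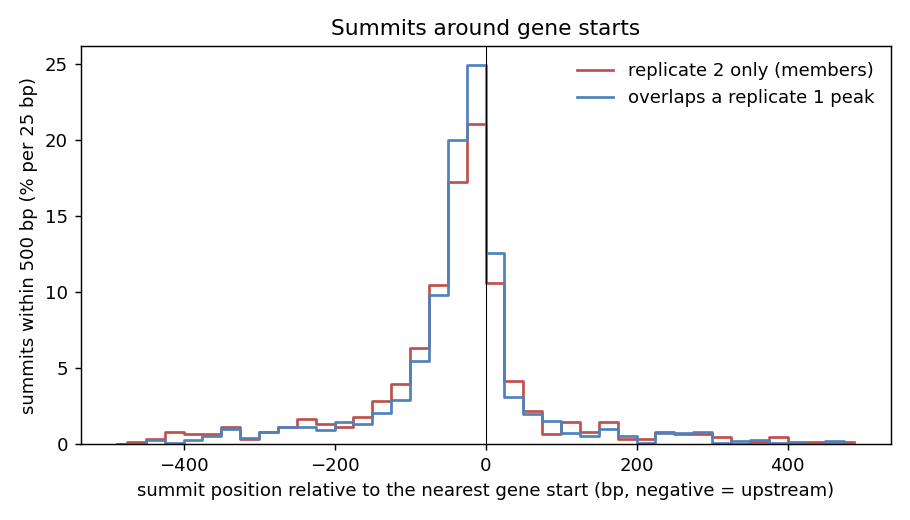
Percent of summits within 500 bp of a gene start that fall in each 25 bp step (vertical axis) by position relative to the start in bp (horizontal axis, negative upstream), for 603 peaks seen only in replicate 2 (red) and 970 shared peaks (blue). Both curves are highest just upstream of the start.

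Summits near 2 gene starts had a similar share among both kinds of peak. The strands of the 2 starts were not compared, so back-to-back pairs were not told apart from others. A summit within 1 kb of 2 gene starts was found for 121 (16.3%) against 206 (16.6%), and 174 (23.5%) against 328 (26.4%) lay near ends of 2 genes of any kind. The 5 strongest at paired starts were Gfm2 with Nsa2, Ubox5 with Fastkd5, Rars2 with Orc3, Catsperd with Lonp1, and Csnk1g1 with Trip4. The last pairs each had a fold enrichment of 10.0 from 30 fragments (20.2 to 42.8). Lonp1 is a protease of the mitochondrial matrix, and Trip4 a transcriptional coactivator that also acts in ribosome quality control.

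Few of the peaks lay within 10 kb of one another. The rule leaves out peaks within 10 kb of a combined region, so clusters around such regions could not be seen. When peaks with gaps of at most 10 kb were joined, 712 runs resulted, of which 30 held 2 peaks and none held more. The number per 100 protein-coding genes ranged from 1.55 on the X chromosome (15 peaks, 966 genes) to 4.29 on chromosome 11 (69 peaks). Shared peaks were lowest on X as well, at 1.35, but highest on chromosome 15 at 9.92. Chromosome 13, which carries the strongest peak, had 2.29 replicate 2-only peaks per 100 genes.

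Genes rarely had peaks of both kinds. Of the 888 genes with a replicate 2-only peak and the 1507 genes with a shared peak (6.89% of all), 7 were in both sets: Bnip2, Chd8, Hgs, Mast3, Neurl4, Retreg3 and Shc1. The rule itself keeps such genes few, because it excludes peaks within 10 kb of a combined region. In these 7 the peaks were at opposite ends of the gene, between 11.7 kb and 60.6 kb apart. Each shared peak overlapped a combined region, so the rule itself kept the 2 peaks far apart and at opposite ends. At Chd8, a chromatin remodeller, the start carried a replicate 2-only peak (fold enrichment 5.69, 20 fragments) and the other end a shared peak (12.6, 39 fragments, with 34 in replicate 1).

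Gene function was described with 24 gene lists, which together hold only a minority of the 888 genes. In each list, the share with a replicate 2-only peak was read against 4.06% of all protein-coding genes, and the share with a shared peak against 6.89%. The lists were chosen with earlier results of these data known, so the counts are a description. No list held a gene with both kinds of peak. Only 7 of all 21887 protein-coding genes did, because the rule keeps such genes few.

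Genes of protein synthesis were well represented. Of 87 cytosolic ribosomal protein genes, 11 (12.6%) had a replicate 2-only peak and 33 (37.9%) a shared peak. Rps25 and Rpl36a were the strongest of the 11, each with a fold enrichment of 7.45 from 22 fragments. Of 79 mitochondrial ribosomal protein genes, 11 (13.9%) and 26 (32.9%) did, led by Mrps30 (9.39, 28 fragments) and Mrpl28 (9.04, 43 fragments). Aminoacyl-tRNA synthetases, which charge transfer RNAs, gave 6 of 37 (16.2%) and 12 (32.4%), led by Rars2 and Ears2 (6.48, 19 fragments).

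The translation factor list gave 9 of 73 (12.3%), against 24 (32.9%) with a shared peak. Eif3g led it, followed by Eef1aknmt (7.43, 28 fragments). The list was built by symbol, and 3 of its 9 genes with a peak, Eef1aknmt, Eef1akmt3 and Eef2kmt, encode methyltransferases that modify elongation factors rather than the factors themselves. RNA helicases, which act in ribosome assembly, splicing and decay, gave 7 of 53 (13.2%), led by Ddx21 and Dhx30 (9.39, 28 fragments), against 15 (28.3%).

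Genes of transcription and splicing showed similar shares. Of 105 genes for RNA polymerase subunits, general factors and Mediator, 13 (12.4%) had a replicate 2-only peak and 22 (21.0%) a shared peak. Taf1c was highest, and Gtf3c6, with 8.13 from 26 fragments, had its peak at the 3′ end of the gene, where Rpf2 starts. Polr2a, the largest subunit of RNA polymerase II, had 7.12 from 21 fragments (13 to 32.1). Splicing factors gave 10 of 89 (11.2%) and 26 (29.2%), with Sf3b5 and Snrpb highest at 9.39 from 28 fragments each.

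Mitochondrial genes outside the ribosome divided into import and respiration. The import list, whose products carry proteins across the outer and inner membranes, had 7 of 28 genes (25%) with a replicate 2-only peak and 8 (28.6%) with a shared peak. The 7 were Timm10 (8.74, 26 fragments), Tomm40 and Timm44 (7.12, 21 fragments each), Pmpcb (6.80, 20 fragments), Timm8b (5.64, 21 fragments), Tomm5 (4.63, 26 fragments) and Timm22 (4.53, 13 fragments). Tomm40 forms the pore of the outer membrane, Timm44 anchors the import motor, and Pmpcb cleaves targeting sequences. Oxidative phosphorylation gave 10 of 97 (10.3%) and 24 (24.7%), led by Atp5a1 and Atp5k (6.41, 24 fragments).

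Secretory genes had as many replicate 2-only as shared peaks. Of 44 coat and TRAPP genes, 10 (22.7%) had each kind. Sec61g, a subunit of the translocon, had 9.57 from 29 fragments. TRAPP, a tethering complex that activates RAB GTPases, accounted for 7 of the 10, Trappc8 (8.09, 24 fragments), Trappc4, Trappc6b, Trappc9, Trappc1, Trappc5 and Trappc6a, the others being Sec31a and Sec23ip. The peak of Trappc4 was the one at Rps25, since these genes adjoin. RAB, VPS, SNX and syntaxin genes gave 10 of 139 (7.19%) and 15 (10.8%), with Snx16 and Rab26 highest at 6.15 and 6.06.

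Proteasome genes had 8 of 49 (16.3%) with a replicate 2-only peak and 14 (28.6%) with a shared peak. Most of the 8 encode subunits of the regulatory particle. Psmd6 had the highest fold enrichment at 8.61 from 26 fragments (17 to 38.1). Psmc5, an ATPase subunit, had 2 peaks, 6.15 from 23 fragments and 5.96 from 28 fragments. Both of these peaks also lay within 1 kb of a start or end of Ftsj3.

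Psmd2 (6.15, 23 fragments) and Psmc3 (6.15, 18 fragments) had the same fold enrichment over different backgrounds. Psmd8 followed with 5.72 from 18 fragments and Psmd9, an assembly chaperone, with 5.18 from 15. Psmb4, a subunit of the core particle, had the most fragments of these genes, 31 (21.1 to 44.0), but a fold enrichment of 5.48. Psmd11 was lowest at 3.97 from 26 fragments. All these intervals overlapped.

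Among other groups of protein turnover the shares were lower. Ubiquitin E2 enzymes and USP deubiquitinases gave 6 of 93 (6.45%) and 10 (10.8%), led by Usp16 (7.77) and Usp19 (6.92). Cullins, F-box proteins and the anaphase complex gave 3 of 102 (2.94%), near the 4.06% of all genes, against 16 (15.7%) with a shared peak. The 3 were Fbxw9 (8.42), Anapc13 (6.48) and Anapc2 (5.75). Chaperones gave 8 of 83 (9.64%) and 14 (16.9%), led by Cct4 (5.96) and Dnajc13 (5.18).

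Cell cycle and nuclear transport lists had shares of 5.95% to 9.72% with a replicate 2-only peak. DNA replication and repair gave 5 of 84 (5.95%) and 15 (17.9%), led by Orc3 and Fanci (8.42), a protein of crosslink repair. Cyclins, CDKs and centromere proteins gave 7 of 72 (9.72%) and 12 (16.7%), led by Cenpk (7.42) and Cenpf (7.32). Nuclear pore and transport receptor genes gave 4 of 44 (9.09%) and 8 (18.2%), led by Nup35 (6.48) and Ipo7 (5.90).

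Autophagy genes, the pathway named in the study's title, had 4 of 58 (6.90%) with a replicate 2-only peak and 12 (20.7%) with a shared peak. Atg7, the E1-like enzyme of the ATG conjugation systems, had a fold enrichment of 9.39 from 28 fragments (18.6 to 40.5), with the summit 21 bp from its start. Pik3r4, the regulatory subunit of the class III phosphatidylinositol 3-kinase, had 7.77 from 23 fragments (14.6 to 34.5). Atg13, a subunit of the ULK kinase complex, had 5.90 from 22 fragments at a summit shared with the neighbouring Harbi1. Bnip3l, a receptor for mitochondrial autophagy, had 3.89 from 11 fragments (5.49 to 19.7). That was the lowest number among the 742, and 5 of them had it. Of the genes followed whatever their values, Deaf1 and Pik3c3 had neither kind of peak at an end, and Atg16l1 and Eif4g3 had a shared peak.

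Of the 4 FOXO genes only Foxo4 had a replicate 2-only peak, a low one of 4.53 from 13 fragments (6.92 to 22.2), and none had a shared peak. None of 12 myogenic regulator genes had a peak of either kind, beside 4.06% and 6.89% of all protein-coding genes. At such shares a list of 12 genes can readily hold none.

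Large gene families spanned the background. Olfactory receptors gave 1 of 1106 (0.0904%), Olfr782, with its summit 929 bp from the gene start (4.21, 12 fragments). Solute carriers gave 17 of 375 (4.53%) with each kind of peak, against 4.06% of all genes for replicate 2-only and 6.89% for shared peaks. The strongest replicate 2-only peaks were at Slc25a53 (7.45) and Slc25a44 (7.12). Zinc finger genes gave 29 of 424 (6.84%) and 46 (10.8%), with Zfp420 and Zfp626 highest.

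**Figure D3:**
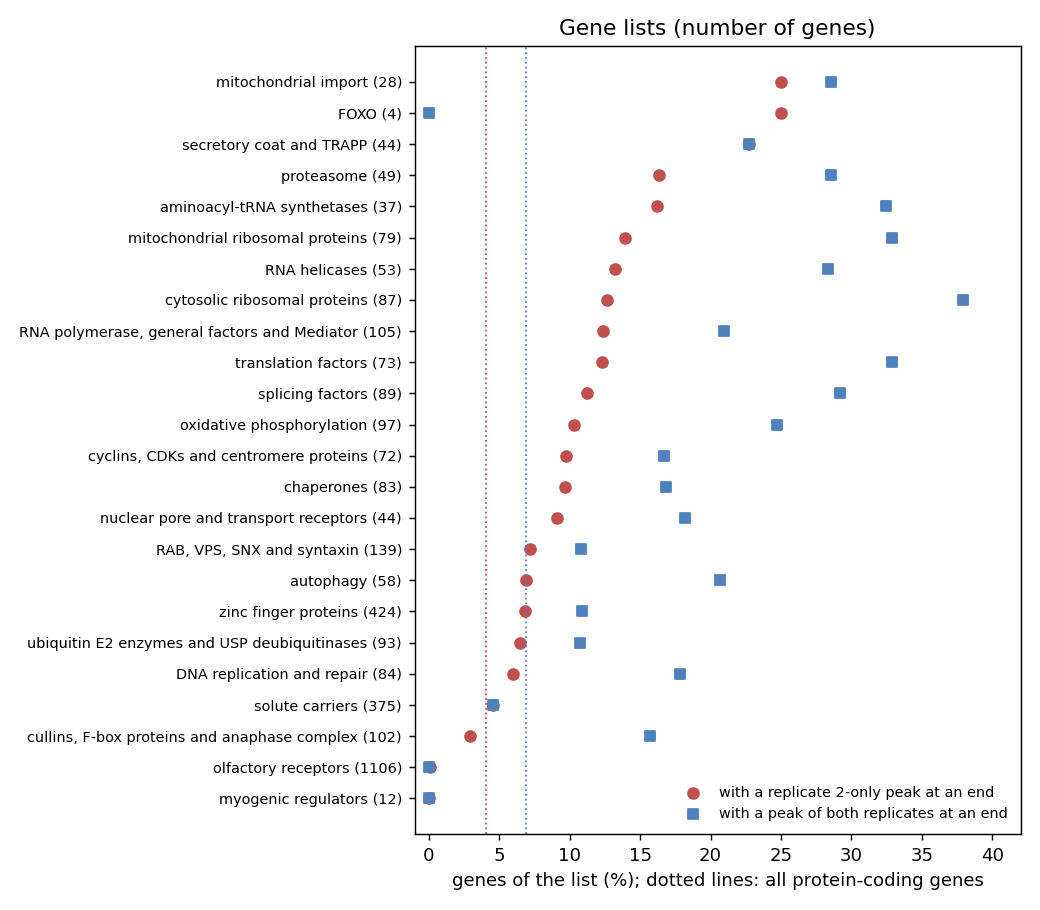
Percent of the genes in each of 24 lists (list size in parentheses) with a replicate 2-only peak at an end (red circles) or a shared peak (blue squares), and dotted lines at the values for all genes, 4.06% and 6.89%. Lists of protein synthesis sit at 12.3% to 16.2% for replicate 2-only peaks and at 32.4% to 37.9% for shared peaks.

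Sequence was not used by the rule, and the promoters were searched for 11 words on both strands in windows from 250 bases before to 50 after each start. The 811 windows with a start within 1 kb of a replicate 2-only summit were set beside 1355 windows at shared peaks and all 21045. They were rich in GC (median 61.3%, against 60.7% and 56.7%) and CpG (median 23 per window, against 23 and 13). A match is a description of letters and not a bound site, and words share base composition with the CpG-rich promoters they lie in.

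The ETS word CCGGAAG was in 40.8% of windows at replicate 2-only peaks, 54.0% at shared peaks and 11.7% of all windows. The short CRE word TGACG was in 44.0%, 44.6% and 23.8%, and the full CRE TGACGTCA, which contains the short word on both strands, in 4.81%, 4.72% and 2.26%. The Deaf1 half-site TTCG was in 72.0%, 70.8% and 49.4%, and the longer TTCGG, which contains it, in 34.9%, 39.4% and 22.2%.

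The remaining words follow for the same 3 sets of windows. The NRF1 word GCATGCGC was in 6.41%, 6.05% and 3.54%, the YY1 word AAGATGGCG in 3.45%, 3.39% and 1.84%, and the E-box CACGTG in 10.2%, 9.67% and 7.91%. The SP/KLF word GGGGCGGGG was in 18.5%, 17.7% and 15.5%, and the NFY word CCAAT in 38.2%, 37.7% and 38.5%. TTAA, searched as an AT-rich comparison, was in 36.7%, 40.2% and 48.1%. Of these 11 words, the ETS word had the widest gap between replicate 2-only and shared peaks.

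Position relative to the summit distinguished the words further. It was measured in 505 replicate 2-only and 836 shared peaks, with 1 window per peak. The ETS word occurred 6.50 times per 1000 positions within 25 bp of the summit and 0.466 times beyond 75 bp, a ratio of 14, where the same places in all promoters gave 0.744. At shared peaks the values were 10.2 and 0.555, a ratio of 18.4. Within 25 bp of the summit 148 replicate 2-only peaks (29.3%) and 364 shared peaks (43.5%) held the word.

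The short CRE word was likewise centred. It occurred 5.78 times per 1000 positions near the summit and 1.35 times far from it, a ratio of 4.29, and 5.75 and 1.24 times at shared peaks, a ratio of 4.65. The shares of peaks with the word within 25 bp were 23% (116) and 22.6% (189). Unlike the ETS word, the short CRE word was therefore about as common at the summits of both kinds of peak.

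The Deaf1 half-site was not centred on the summits. TTCG occurred 4.11 times per 1000 positions within 25 bp and 4.20 times beyond 75 bp, a ratio of 0.980, and the ratio at shared peaks was 0.918. The near value was 1.58 times that at the same places in all promoters. It was within 25 bp of 94 summits (18.6%), against 164 (19.6%) at shared peaks. Among the 16 words that end in CG after any 2 bases, TTCG ranked 16 of 16 by this ratio at replicate 2-only peaks. At shared peaks it ranked 15 of 16. TCCG ranked first in both, at 2.62 and 3.28, and is part of CTTCCGG, the reverse complement of the ETS word.

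**Figure D4:**
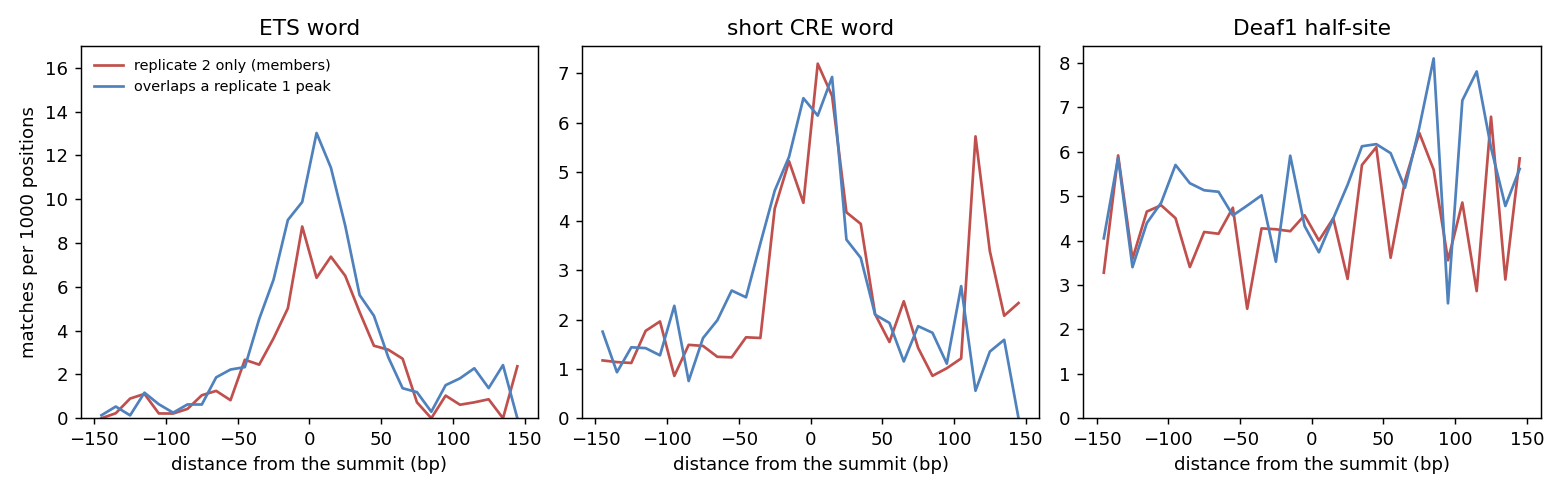
Matches per 1000 positions (vertical axes, different scales) by distance from the summit in bp (horizontal axis, positive in the direction of transcription, steps of 10 bp), for the ETS word, the short CRE word and the Deaf1 half-site at peaks seen only in replicate 2 (red) and shared peaks (blue). The ETS and short CRE curves rise around the summit and the half-site curves do not, and the points beyond 100 bp downstream rest on few positions, such as 8 matches in 1398 positions at 115 bp for the short CRE word.

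A search that did not start from known words gave the same ones. Of 325 words of 6 bases with at least 20 matches near the summits, CCGGAA had the highest ratio of near to far, 11.6 (244 matches near, 68 far), followed by CGGAAG at 10.3. These overlap the ETS word. ACGTCA at 7.66 and GACGTC at 7.29, which overlap the CRE, came next. CCGGAA also ranked first at shared peaks, at 13.2.

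Few peaks held both words. Of the 505, 122 (24.2%) had the ETS word alone within 25 bp, 90 (17.8%) the short CRE word alone, 26 (5.15%) both and 267 (52.9%) neither. Neither these nor TTCG was within 25 bp of 204 summits (40.4%), against 272 of 836 (32.5%) at shared peaks.

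Peaks with the ETS word were taller. The 148 with the word within 25 bp had a median of 22 fragments (interquartile range 19 to 25) and a fold enrichment of 6.48, against 19 (16 to 23) and 5.75 for the 357 without it. The ranges overlapped widely. For the short CRE word the medians were 20.5 and 20 fragments, with a fold enrichment of 5.90 for both, and for TTCG 20 and 20 fragments, with 5.93 and 5.90.

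Below 30 fragments, the ETS share at equal height was close in both kinds of peak. At 10 to 19 fragments it was 17.9% (interval 13.3 to 23.5%, n = 234) for replicate 2-only peaks and 17.6% (6.76 to 34.5%, n = 34) for shared peaks. At 20 to 24 fragments it was 38.7% (31.3 to 46.5%, n = 168) and 40.9% (31.6 to 50.7%, n = 110). At 25 to 29 fragments it was 43.2% (31.8 to 55.3%, n = 74) and 45.7% (37.8 to 53.7%, n = 162). At 30 fragments and over the values lay further apart, at 31% (15.3 to 50.8%, n = 29) and 45.1% (40.8 to 49.4%, n = 530). The small number of replicate 2-only peaks left the first imprecise. The shares over all heights were 29.3% and 43.5%, and the part of height in that difference was not tested.

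**Figure D5:**
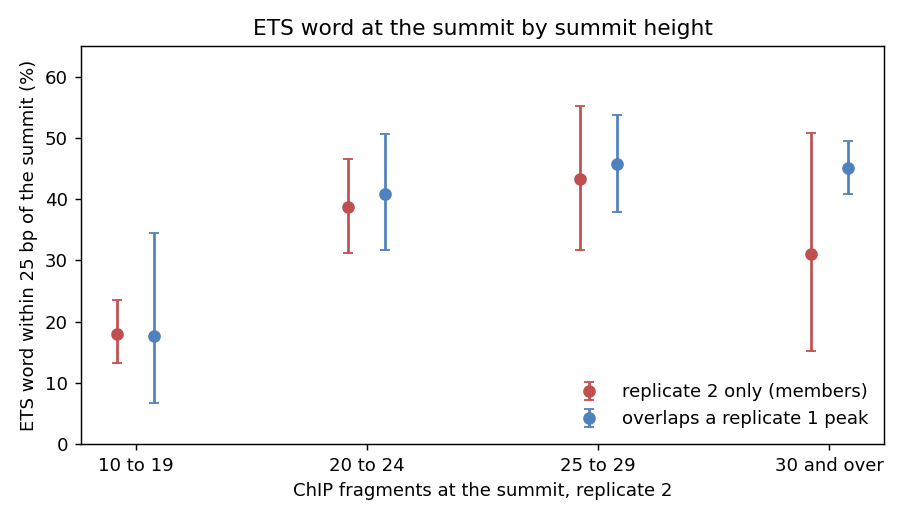
Percent of peaks with the ETS word within 25 bp of the summit (vertical axis) by class of ChIP fragments at the summit (horizontal axis), for peaks seen only in replicate 2 (red) and shared peaks (blue), with exact 95% intervals. The intervals of both kinds of peak overlap in every class.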

How the data were processed

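Deaf1 ChIP and input libraries of C2C12 cells, 2 of each, were represented by a deposited peak list for each ChIP library and a combined list. Group and replicate number came from the sample titles. Per the submitters' processing notes, FastQC 0.11.8, BWA 0.7.17-r1198, MACS2 2.1.2 and the build mm10 were used, and filters, duplicate handling and the program behind the combined list are not given in the sources used here. The deposited fold enrichment is a ratio, which the authors' caller takes at the summit between ChIP and local background. The deposited p and q are −log10 values. The summit offset, in bp from the peak start, is the other deposited column used. From the authors' combined list, whose deposited score joins both libraries, only the positions of regions were used, and its 6 columns of values for single samples were left out.

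Fragments and background at each summit were recovered from fold enrichment and p with the MACS2 formulas, in which fold is (fragments + 1)/(background + 1) and p is the Poisson chance of more fragments. Each peak (100% in either list) had exactly 1 whole-number solution, and −log10 p was met to within 5.07e-05. A fold enrichment with 1 added to both terms understates the ratio of low peaks.

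Gene spans, 1 per gene without strand, and promoter windows came from RefSeq tables on GRCm38.p6. Of 21887 protein-coding genes 17274 had a promoter entry, giving 21045 windows. Starts and ends of spans were told apart through these entries, and starts inside a span were not considered in that step. The positions of summits relative to the nearest start and the word searches used every start of the promoter entries, including those inside a span. The 1864 pairs of overlapping windows on opposite strands held the same bases. All coordinates are 1-based on GRCm38.

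The members and the gene lists were chosen with earlier results of these data known, so no test was made. The genes named were the 20 members of highest fold enrichment, the 5 widest, members at autophagy, proteasome, FOXO and myogenic genes, 4 fixed genes, neighbours of each threshold, the 2 strongest of every other list, and the 5 strongest at paired starts. The result for 1 of the 5 widest is not reported here. Others named (members of 40 fragments or more, those near a replicate 1 peak or at a 3′ end, genes with both kinds of peak, all members of the import and TRAPP lists, and Anapc2, Polr2a, Arl6ip4, Ap1ar and Zfp426) were chosen after their values were seen. On simulated data, 493 of 493 summit counts, 500 of 500 gaps and 200 of 200 planted words were recovered. Python 3.11.15, numpy 2.4.6, pandas 2.3.3, scipy 1.17.1 and matplotlib 3.10.9 were used. Alternatives covered the q limit, the overlap and distance limits, the gene-end window, runs and the choice of promoter windows.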

Additional observations from a re-analysis of the deposited data

How the results depend on the processing

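The number of replicate 2-only peaks stayed within 1.5 times of 742 under the alternatives tried, from 565 with −log10 q of at least 5 to 888 with no minimum distance from the combined list, and the number of genes went from 690 to 1056. Requiring −log10 q of at least 5 moved the median fold enrichment to 6.37 and the median summit to 21 fragments, which follows from dropping the weakest peaks. The share at a gene start stayed between 83.3% and 85.8%. Using promoter windows that contain the summit, in place of every start within 1 kb, moved the share with the ETS word from 40.8% to 50.4%. The remaining 48 values moved by less than their interval or, for counts, less than 1.5 times. No value without a replicate could be had, because the rule needs both peak lists. No paired analysis was possible because each list is 1 ChIP library and the results come from no test between groups. Depth limits single peaks: the median summit of 20 fragments carries a wide counting interval, and the level in replicate 1 below its calling limit is not in the peak lists.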

Other observations

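The 84 gene-end peaks of replicate 1 that had no replicate 2 overlap and lay over 10 kb from the combined list were led by Ttc17, Grwd1 and Adat1, each with a fold enrichment of 8.57 from 23 fragments (95% exact Poisson interval 14.6 to 34.5), then Nsrp1 with 8.22 from 23 fragments and Phrf1 with 7.85 from 21. Ttc17 lies 395747 bp and Grwd1 112652 bp from the nearest replicate 2 peak. The 146 unshared gene-end peaks of replicate 2 within 10 kb of a combined region had a median fold enrichment of 5.16 and a median summit of 17 fragments. Their summits lay a median of 268 bp from the nearest start or end of a gene, against 44 bp for the replicate 2-only peaks and 39 bp for the shared peaks.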
